A study of Mus musculus with 139 samples.

Results

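A set of 10 microRNA genes known as neuronal was followed through a small RNA atlas of 11 mouse tissues. The set holds both copies of Mir128 (Mir128-1 and Mir128-2), of Mir129 (Mir129-1 and Mir129-2) and of Mir138 (Mir138-1 and Mir138-2), together with Mir137, Mir218-1, Mir488 and Mir383. The members were chosen by name, as 10 rows among 6114 small RNA genes in the count table, of which 2207 are classed as miRNA. They were chosen with earlier results of these data known. Mir218-2, the other copy of Mir218, is also in the table and is given beside Mir218-1, but is not counted among the 10. All libraries came from wild-type C57BL/6J mice, an inbred strain, aged 3 months, and the labels name no treatment. The tissues were brain, bone marrow, heart, intestine, kidney, liver, lung, muscle, pancreas, spleen and testis, with 12 to 14 libraries each except testis, which had 3. Tissue numbers name 14 animals, and the column names give animals 1 to 10 as female and 11 to 14 as male. The labels also name a library pool: N469 held brain, bone marrow, heart, intestine and muscle of animals 1 to 10, N467 held their kidney, liver, lung, pancreas and spleen, and N541 held all tissues of animals 11 to 14. Whole tissue was used, so fewer cells of a type and less RNA per cell cannot be told apart.

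Levels are given as CPM, the counts of a gene per 1e06 counts of its library. The smallest library held 10255 counts, the largest 34095704 and the median library 6327550; 8 of 134 were under 100000. Of these 8, 6 were pancreas libraries, 1 was Brain 11 with 17201 counts and 1 was a liver library. The library labelled Pancreas 11 stood apart: it held 10255 counts, none of them from a member, and 81716 CPM of the intestinal marker Mir215, against at most 1.60 CPM in any other pancreas library. Brain 10 held 40.8% of its counts in Mir182, a miRNA of sensory epithelia, against a brain median of 3876 CPM. The brain libraries carried their defining markers: the summed level of the Mir124a and Mir9 copies, both neuronal families, was 30596 to 71158 CPM. In the libraries labelled testis, the summed level of 5 miRNAs of a germ line cluster on the X chromosome was only 0 to 0.138 CPM, while in heart it was 3.816 to 15.04 CPM.

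A miRNA gene is transcribed as a longer RNA that folds into a hairpin, from which a short mature strand is cut. The mature strand guides Argonaute proteins to messenger RNAs that pair with its seed, bases 2 to 8, and the paired messenger RNA is repressed. In neurons such miRNAs act on ion channels, synaptic proteins and chromatin regulators. miR-128 restrains neuronal excitability, miR-137 acts in neuronal differentiation and at synapses, miR-138 limits the growth of dendritic spines, and miR-218 is characteristic of motor neurons.

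RefSeq sequences on GRCm38.p6 were matched for 9 of the 10 members; Mir383 is named only. The main strands are shown because the seed sets each family's targets. The seed is in capitals and every strand is written 5′ to 3′:
miR-128-3p: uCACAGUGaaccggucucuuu
miR-129-5p: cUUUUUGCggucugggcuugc
miR-137-3p: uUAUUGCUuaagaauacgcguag
miR-138-5p: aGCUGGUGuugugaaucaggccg
miR-218-5p: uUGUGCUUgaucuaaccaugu
miR-488-3p: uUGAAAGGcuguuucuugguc

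None of these 6 seeds is shared with another of the 6. In the RefSeq table of 1679 mature miRNAs the seed of miR-218-5p also occurs in miR-7002-3p, and the other 5 seeds occur in no mature miRNA outside their own family.

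Each pair of copies yields 1 identical mature strand, which bears on how reads are divided between the rows. The hairpins of Mir129 and Mir138, whose copy shares are compared between brain and pancreas, are shown with the identical strand in capitals:
Mir129-1: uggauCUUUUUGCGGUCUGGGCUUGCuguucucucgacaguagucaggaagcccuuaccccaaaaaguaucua
Mir129-2: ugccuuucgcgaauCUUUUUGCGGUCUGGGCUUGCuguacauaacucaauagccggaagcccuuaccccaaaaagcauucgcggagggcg
Mir138-1: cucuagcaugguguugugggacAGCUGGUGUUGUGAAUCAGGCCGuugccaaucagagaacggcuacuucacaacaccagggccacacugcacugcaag
Mir138-2: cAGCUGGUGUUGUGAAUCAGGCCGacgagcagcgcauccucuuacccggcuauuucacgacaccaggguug

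The other strand of a hairpin can tell copies apart. For Mir138 and Mir218 these opposite strands, with the seed in capitals, are:
miR-138-1-3p: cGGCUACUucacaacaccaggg
miR-138-2-3p: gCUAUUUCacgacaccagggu
miR-218-1-3p: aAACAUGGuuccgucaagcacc
miR-218-2-3p: cAUGGUUCugucaagcaccgcg

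The longest run shared by the 2 Mir138 strands is 9 bases and by the 2 Mir218 strands 10 bases. How the submitters' counting treated reads that match both copies is not given in the sources used here, so each copy's level is uncertain where a family has 2 rows.

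In the GENCODE M21 annotation of GRCm38, 5 members and Mir218-2 lie in introns of protein-coding genes on the same strand. Mir128-1 (chr1:128202361-128202430) is in R3hdm1, Mir128-2 (chr9:112118636-112118711) in Arpp21, and Mir218-1 (chr5:48223942-48224051) in Slit2. Mir218-2 (chr11:35616816-35616925) is in Slit3, Mir488 (chr1:158505625-158505733) in Astn1, and Mir383 (chr8:38252133-38252202) in Sgcz. Slit2 and Slit3 encode axon guidance ligands, and Astn1 encodes a protein of neuronal migration. Mir129-2 (chr2:94241364-94241453) lies in an intron of the non-coding gene Mir670hg. It is overlapped on the opposite strand by Mir129b, so without a stated strand setting reads of the 2 could not be separated. The other 4 overlap exons of non-coding genes: Mir129-1 (chr6:29022619-29022691), Mir137 (chr3:118433857-118433929), Mir138-1 (chr9:122682876-122682974) and Mir138-2 (chr8:94324311-94324381).

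All 10 members were higher in brain than in the mean of the other 10 tissues. The summed level of the members was 5165 to 25114 CPM in the 14 brain libraries, with a median of 17477, and at most 524 CPM in any library of another tissue, a muscle library. Log2 fold changes on TMM-scaled counts ran from 5.98 (SE 0.23) for Mir218-1 to 9.76 for Mir488, and the median over the members was 8.28. Over all 1268 genes tested, 36.7% were called higher in brain and the median log2 fold change was 0.14; among the 578 miRNA genes tested, 311 were higher and the median was 1.35. A call needed an adjusted p below 0.05 in edgeR's quasi-likelihood test with Benjamini-Hochberg adjustment and a log2 change of at least 1. With unscaled library totals these medians were 9.29 for the members and 0.89 for all genes, and with DESeq2 size factors 7.81 and -0.20. The smallest margin in adjusted p was that of Mir383, at 1.12e-41 by edgeR with Benjamini-Hochberg adjustment, with a log2 fold change of 8.21 (SE 0.41).

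**Figure D1:**
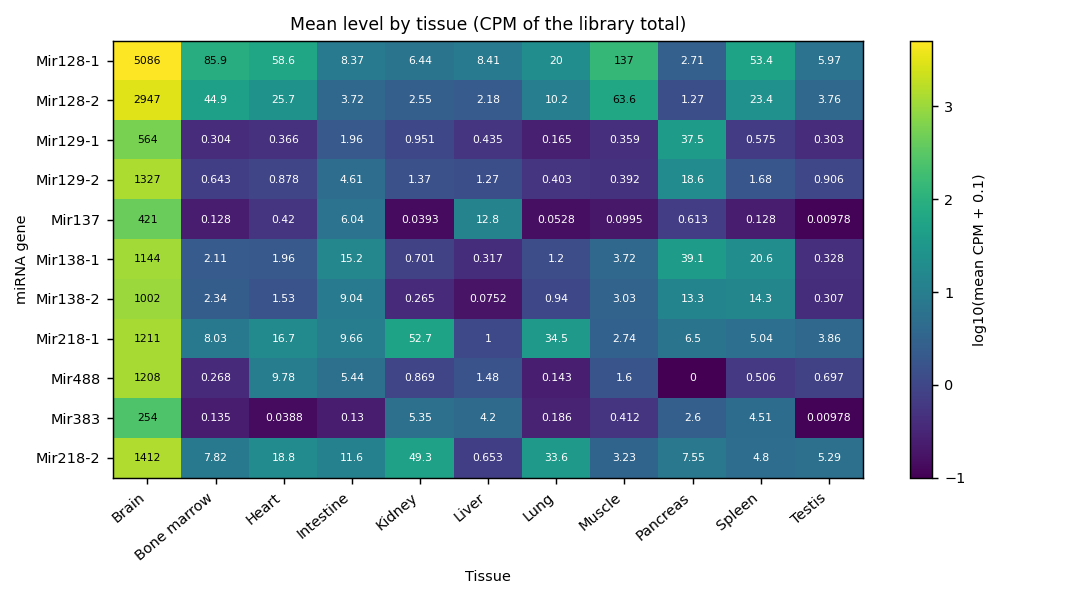
Mean CPM of the library total for each gene (rows) in each tissue (columns), coloured by log10(mean CPM + 0.1), with the mean printed in each cell. The brain column holds the highest value in every row, from 254 CPM for Mir383 to 5086 CPM for Mir128-1, and Mir488 in pancreas is 0.

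A list of 28 other brain miRNAs was read beside them, most of them neuronal, with Mir338 and the Mir219a copies known from oligodendrocytes. Of these, 27 were higher in brain, none was lower and 1, Mir219a-1, did not pass the fold threshold, at a log2 fold change of 0.95. The list's median log2 fold change was 7.84. The list was chosen with earlier results of these data known, so its calls are no independent test. Its 4 highest in brain were Mir9-3 (13712 ± 6268 CPM, SD, n = 14), Mir9-2 (13712 ± 6254), Mir9-1 (9116 ± 4186) and Mir124a-2 (4116 ± 3912), all from families that are abundant in neurons.

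The members were also called higher in brain than in every single other tissue, a stricter test that 12.3% of all genes tested passed. What separated the members was the tissue that came nearest. On TMM-scaled counts, the smallest brain-to-tissue log2 difference was 2.52 (SE 0.35) for Mir218-1 against kidney and 3.52 (SE 0.57) for Mir129-1 against pancreas. It was 4.05 (SE 0.32) and 4.32 (SE 0.32) for Mir128-1 and Mir128-2 against muscle, 4.10 (SE 0.68) for Mir137 against liver and 3.90 (SE 0.61) for Mir383 against kidney. Mir129-2 (6.12, pancreas), Mir138-1 (5.02, pancreas), Mir138-2 (5.63, intestine) and Mir488 (6.02, heart) were farther from any other tissue.

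In CPM, no library of another tissue reached the lowest brain library for 8 of the 10 members. The share of all genes that meet this was not computed, so the count is not read as particular to the members. For Mir137, 3 liver libraries, the highest at 35.9 CPM, lay above the lowest brain library, at 22.1 CPM. For Mir383, the library Pancreas 3, at 31.2 CPM, lay above the lowest brain library, at 21.6 CPM, but that value is 1 count in 32054 and no other pancreas library held a count.

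**Figure D2:**
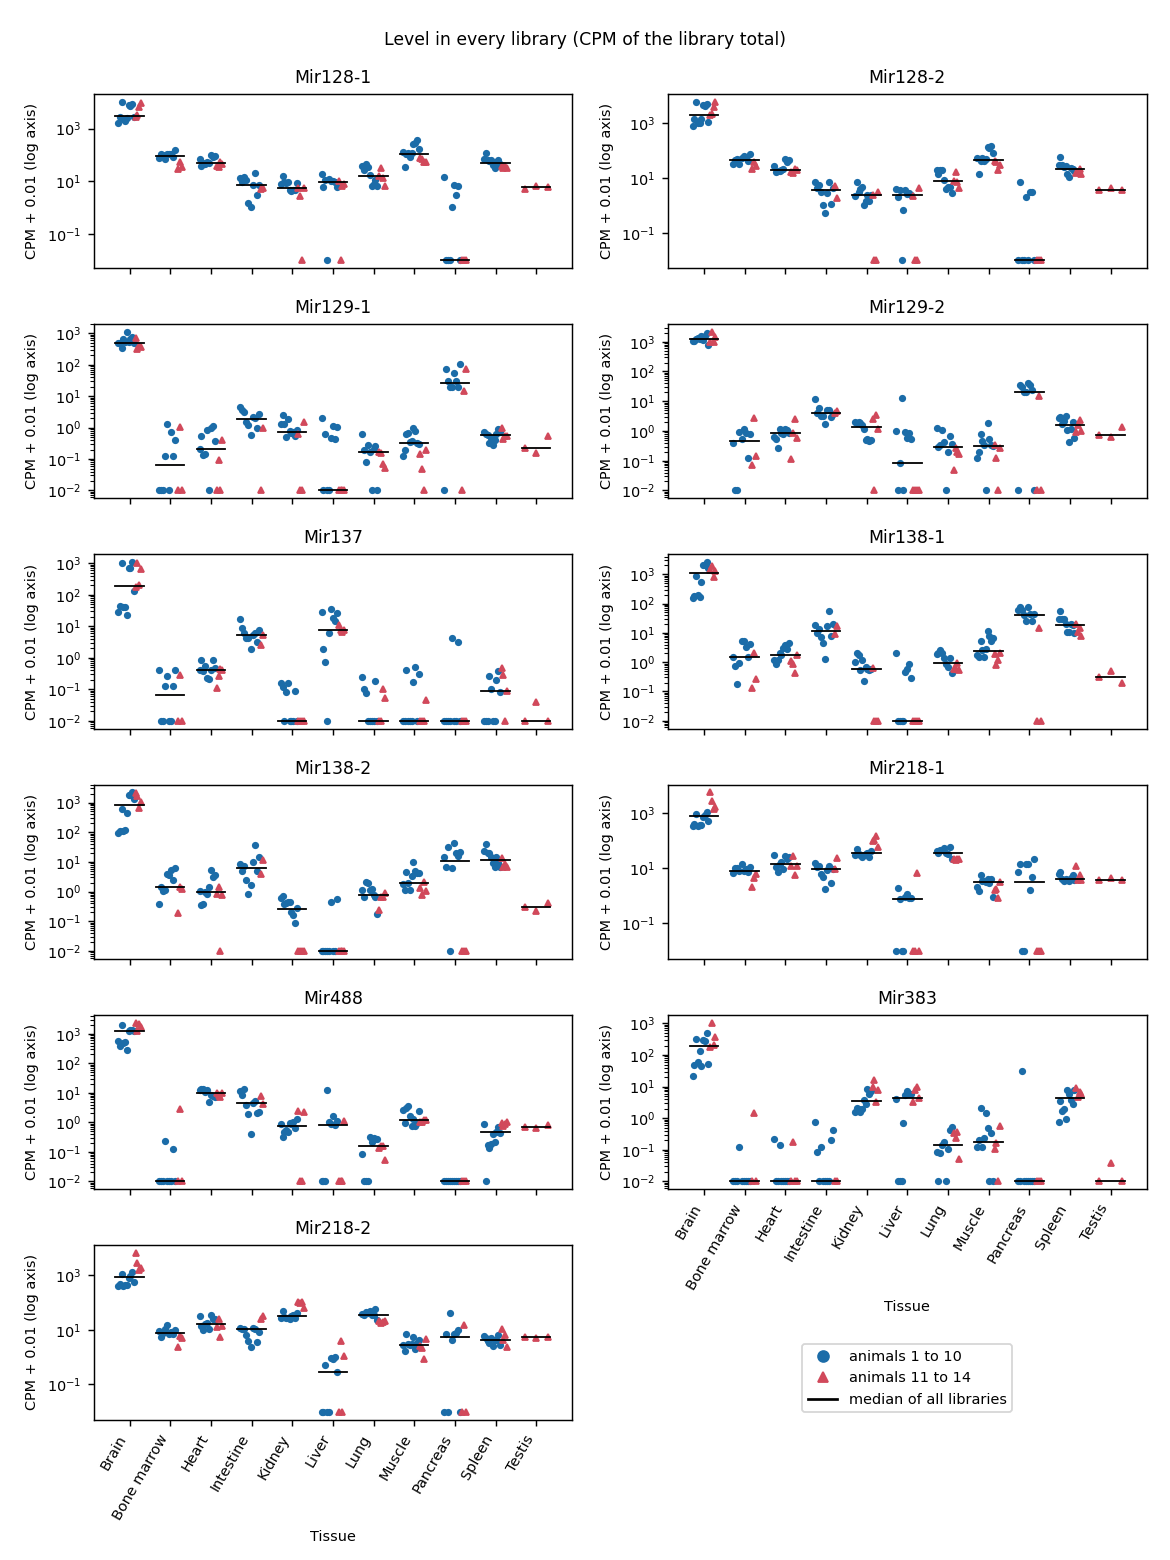
Each point is 1 library: its level as CPM + 0.01 on a log axis, by tissue, for the 10 members and Mir218-2; circles are animals 1 to 10, triangles animals 11 to 14, and bars are medians. Points at 0.01 are libraries without a count; brain stands above the other tissues, and the next tissue differs between families.

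The non-brain tissues were then compared among themselves, each with the mean of the other 9. Of the 100 pairs of a member and a tissue, 31 were called higher, against 19.3% of all gene and tissue pairs tested. Within pool N541 alone, each tissue had at most 4 libraries. There, all 10 members were called against the mean of the other tissues, 9 against every tissue and 23 of the 100 pairs. Of all genes tested in that pool, 307 were called higher in brain than in the mean of the other tissues. Shares of all genes for the every-tissue and pair calls in N541 alone are not given here. The 19.3% comes from all pools, so the 9 and the 23 are not read as particular to the members. The pool and the tissue cannot be told apart between N467 and N469 other than through N541. In testis, where 15.1% of all genes were called, no member was. Each of the other 9 tissues had at least 1 call, and the families differed in their tissues, as follows.

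Mir128 was second highest in muscle. Mir128-1 was 35.9 to 357 CPM in the 14 muscle libraries, median 111, and Mir128-2 was 14.6 to 151 CPM, median 47.2. Brain ranged from 1661 to 10774 CPM for Mir128-1 (median 2995) and from 770 to 6283 CPM for Mir128-2 (median 2070), so brain and muscle did not overlap for either copy. Both copies were called higher in muscle (log2 fold change 3.58, SE 0.25, and 3.57, SE 0.25), where 21.5% of all genes were called. The calls extended to heart, with 1.70 and 1.58 and a background of 14.8%, and to bone marrow, with 1.34 and 1.58 and a background of 29.1%. Mean levels of Mir128-1 were 137 ± 97.8 CPM in muscle (SD, n = 14), 85.9 ± 34.8 in bone marrow (n = 12), 58.6 ± 22.1 in heart (n = 13) and 53.4 ± 23.9 in spleen (n = 14). These 4 neighbours in the order were closer than their spread. Pancreas, at 2.71 ± 4.63 CPM, was lowest, with no count in 7 of 12 libraries.

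Mir129 was second highest in pancreas. The 12 pancreas libraries held 0 to 108 CPM of Mir129-1, median 25.5, and 0 to 42.5 CPM of Mir129-2, median 19.8. In brain the ranges were 314 to 1126 CPM (median 505) and 805 to 2148 CPM (median 1214), above every pancreas library. In the other 9 tissues the highest library of Mir129-1 was 4.52 CPM, in intestine. Mir129-1 was called higher in pancreas (log2 fold change 5.45, SE 0.43) and so was Mir129-2 (3.69, SE 0.42), where 11.6% of all genes were called. In intestine the log2 fold changes were 1.60 and 2.82, against a background of 35.3%. The pancreas values rest on 79 counts of Mir129-1 and 71 of Mir129-2 over all 12 libraries. Mir129-1 was also called in kidney (1.62, SE 0.38, background 14.9%), but with unscaled library totals it was 0.63 there and not called.

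Mir137 was second highest in liver and intestine. Liver libraries ranged from 0 to 35.9 CPM (median 7.77, n = 13) and intestine libraries from 1.87 to 16.7 CPM (median 5.29, n = 12). The brain libraries spanned 22.1 to 1082 CPM, with a median of 185. The tissue log2 fold changes were 5.94 (SE 0.45) for liver, with a background of 12.6%, and 5.22 (SE 0.50) for intestine. Nowhere else outside the brain did the mean exceed 0.613 CPM; in kidney, 9 of 14 libraries had no count, and the 3 libraries labelled testis held 1 count in all.

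Mir138 was spread over more tissues. In pancreas Mir138-1 was 0 to 78.0 CPM (median 41.7) and in spleen 7.70 to 55.7 CPM (median 18.8), against 156 to 2600 CPM in brain (median 1103). Mir138-2 was 0 to 42.5 CPM in pancreas (median 10.9) and 6.56 to 39.0 CPM in spleen (median 11.5), against 97.4 to 2189 CPM in brain (median 846). No spleen or pancreas library overlapped with brain for either copy. Mir138-1 was called higher in pancreas (log2 fold change 3.32, SE 0.38), intestine (3.19, SE 0.32), spleen (2.32, SE 0.26; background 20.4%) and muscle (1.12, SE 0.33). For Mir138-2 the same 4 tissues were called, with 2.57, 3.01, 2.46 and 1.51. The muscle call of Mir138-1 lay at the fold threshold and was lost under 12 alternatives, among them leaving out the highest muscle library (0.93) or 1 testis library (0.86 and 0.94, without the libraries of animals 11 and 12). Liver was the tissue with least Mir138, at 0 counts of Mir138-1 in 8 of 13 libraries and of Mir138-2 in 11 of 13.

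Mir218 was second highest in kidney and lung. Mir218-1 was 25.1 to 146 CPM in kidney (median 34.2, n = 14) and 20.4 to 56.4 CPM in lung (median 34.3, n = 13), against 339 to 5465 CPM in brain (median 771). Mir218-2 was 25.1 to 106 CPM in kidney, 18.3 to 58.6 CPM in lung and 410 to 6569 CPM in brain. Kidney and lung overlapped with each other, and neither overlapped with brain. Log2 fold changes were 3.84 (SE 0.22) in kidney, 2.37 (SE 0.24) in lung and 1.10 (SE 0.26) in heart for Mir218-1, with a lung background of 17.3%. For Mir218-2 they were 3.68 (SE 0.21), 2.27 (SE 0.23) and 1.32 (SE 0.25).

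Mir488 was second highest in heart, at 5.01 to 13.9 CPM (median 9.52, n = 13), followed by intestine at 0.387 to 13.2 CPM (median 4.44, n = 12). Brain was 283 to 2384 CPM (median 1233). None of the 12 pancreas libraries held a count, in 2872917 counts. A floor of 3 counts over the group is 1.04 CPM, and the mean of the brain libraries, 1208 CPM, was 1157 times that floor. The floor is a convention, so this ratio is not a lower limit. Because the fitted value for pancreas depends on the prior count, pancreas was also left out of the mean, an alternative chosen after seeing the data. Without it the log2 fold changes were 9.16 for brain, 3.54 for heart, 3.02 for intestine and 1.40 for muscle, all still called. For kidney it was 0.80 and not called, against 1.45 with pancreas in the mean.

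Mir383 was 21.6 to 1050 CPM in brain, with a median of 194. Kidney (1.54 to 16.7 CPM, median 3.52), spleen (0.739 to 8.99 CPM, median 4.27) and liver (highest library 10.0045 CPM, lowest 0, median 4.44) overlapped with one another. Log2 fold changes were 4.79 (SE 0.43), 2.95 (SE 0.42) and 3.63 (SE 0.50). Which of the 3 came second depended on the scale: kidney by mean CPM, spleen by CPM of the miRNA total and liver by the median. Heart and the libraries labelled testis held 4 and 1 counts of Mir383 in all.

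Markers of other cells were read beside these second tissues. The neuronal Mir124a copies were low there and were at 0 in most pancreas and liver libraries. In pancreas Mir124a-3 had no count in 12 of 12 libraries, Mir124a-2 in 11 and Mir124a-1 in 10. The median pancreas library held only 100238 counts, so a count of 0 there does not show that these miRNAs are absent. In liver they had no count in 11, 7 and 8 of 13 libraries in the same order. In intestine they had no count in only 2, 2 and 1 of 12 libraries, with medians of 0.427, 0.693 and 0.806 CPM and a highest value of 4.34 CPM. The summed level of the 6 neuronal markers was 0 to 97.5 CPM in pancreas (median 8.15), 5.42 to 38.9 in intestine (median 19.3) and 16.6 to 97.9 in kidney (median 51.8), the last made up almost wholly of Mir9 copies. The pancreas value of 97.5 CPM is 1 count of Mir124a-2 in the 10255 counts of Pancreas 11, so it cannot be set beside the kidney value. Mir375, a miRNA of pancreatic islet and gut endocrine cells, had its highest medians in pancreas (39642 CPM) and intestine (1520 CPM), the 2 tissues in which all 4 copies of Mir129 and Mir138 were called. The part of these cells in the levels was not tested.

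The balance of copies was then compared within libraries. In the 14 brain libraries Mir128-1 exceeded Mir128-2 in 14 of 14, with a mean log2 ratio of 0.85 ± 0.23 (SD). Mir129-1 was below Mir129-2 in 14 of 14, at -1.26 ± 0.60, and Mir138-1 was above Mir138-2 in 13 of 14, at 0.34 ± 0.32. Mir218-1 was below Mir218-2 in 14 of 14, at -0.23 ± 0.07; the Mir218 pair was added after the data were seen. Adjusted p by the two-sided exact sign-flip permutation test over the 4 pairs was 0.000163 for Mir128, Mir129 and Mir218, based on the smallest p that 14 libraries allow, and 0.00317 for Mir138. A fixed way of dividing reads that match both copies would shift every library alike, and the way used is not given. The ratios and p therefore describe the counts of the rows, and the output of each locus was not tested.

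Across tissues the ratio was steadiest for Mir218, whose first copy made up 42.6 to 56.5% of both copies' pooled counts. For Mir129 the first copy made up 30.9% of counts in brain (95% exact binomial interval 30.6 to 31.2) and 52.7% in pancreas (44.4 to 60.9). For Mir138 it was 55.8% in brain (55.4 to 56.1), 72.6% in pancreas (64.6 to 79.7) and 71.3% in kidney (63.6 to 78.3). These intervals cover counting error only. Over single libraries with at least 20 counts, the Mir129 share was 12.8 to 41.5% in the 14 brain libraries and 44.4 to 50.0% in the 3 pancreas libraries that reached 20 counts, all below the pooled 52.7%. The Mir138 share was 40.3 to 63.5% in brain and 61.5 to 80.6% in 3 pancreas libraries, so it overlapped. The difference between tissues was not tested.

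**Figure D3:**
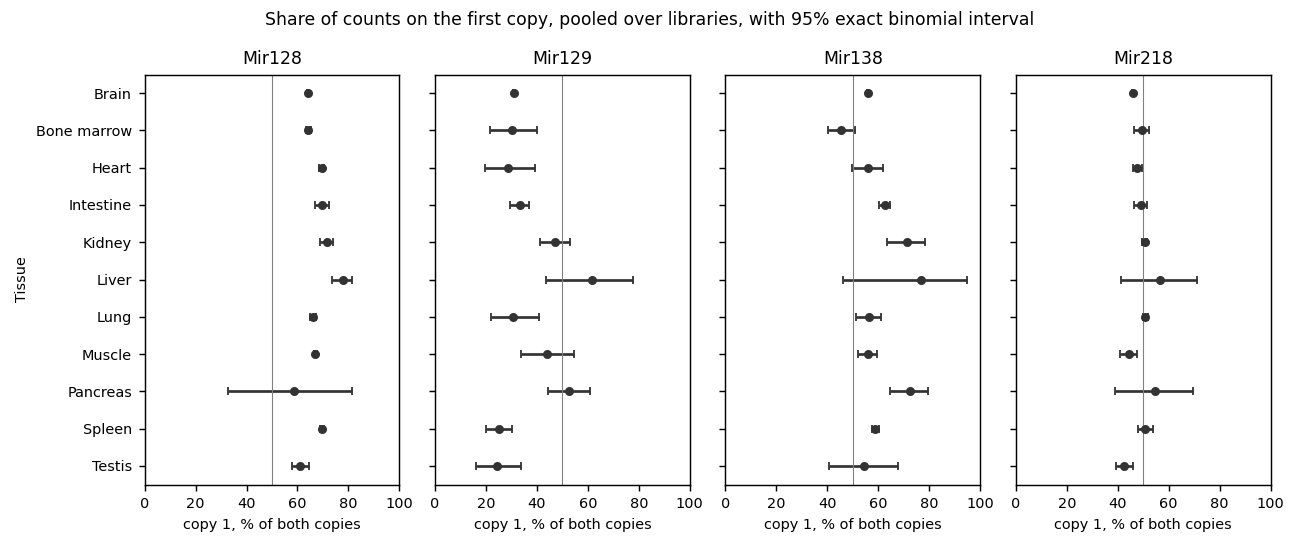
Share of counts on the first copy, in percent of both copies, for Mir128, Mir129, Mir138 and Mir218 in each tissue, pooled over libraries; bars are 95% exact binomial intervals and the vertical line marks equal counts. Mir128 lies to the right of the line in every tissue, though its pancreas interval crosses the line. Mir129 lies to the left in brain, at 30.9%, and to the right in pancreas, at 52.7%, and liver, at 61.8%. The Mir129 intervals of pancreas and liver both cross the line.

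Within brain, the spread between animals differed from member to member, and for most of them it depended on the scale. In CPM the highest library was 48.9 times the lowest for Mir137, 48.7 times for Mir383, 22.5 and 16.6 times for Mir138-2 and Mir138-1, and 16.1 times for Mir218-1. It was 6.49 times for Mir128-1, 8.16 times for Mir128-2 and 8.43 times for Mir488, and 3.58 and 2.67 times for Mir129-1 and Mir129-2. Without its highest library the ratio fell to 7.65 for Mir218-1, whose highest was the shallow Brain 11, and to 22.5 for Mir383, whose highest was Brain 12. On TMM-scaled counts Mir137 again had the largest ratio, at 67.9, and Mir129-1 the smallest, at 5.31. In between the order changed. On TMM-scaled counts the ratio was 27.4 for Mir383, 15.2 for Mir128-1, 13.3 for Mir488, 14.0 for Mir138-1, 7.91 for Mir218-1 and 7.76 for Mir129-2. For both copies of Mir128 and of Mir129 the lowest TMM-scaled library was the shallow Brain 11, which had the largest TMM factor, 5.88. It held 464 (Mir128-1), 336 (Mir128-2), 119 (Mir129-1) and 168 CPM (Mir129-2). The next lowest libraries held 1139, 621, 158 and 562 CPM, so these TMM ratios rest on 1 library. For Mir137, Brain 1, 2, 4, 5 and 6 held 29.1, 44.5, 39.7, 42.0 and 22.1 CPM, and the next higher library was Brain 10 at 133 CPM. The same 5 libraries held 156, 177, 195, 172 and 531 CPM of Mir138-1, again the 5 lowest. They were also the 5 lowest for Mir138-2 (at most 434 CPM, next 605), Mir218-1 (at most 380, next 526) and Mir488 (at most 568, next 1221). The same held narrowly for Mir128-1 (at most 2730, next 2732), while for Mir128-2 and Mir383 Brain 10 lay among them. Mir129-2 in them was 1030, 1078, 1353, 1215 and 1587 CPM, within the range of the others. All 5 libraries come from animals 1 to 10, a set compared below. Because these libraries stand apart from the rest for Mir137, no correlation over the brain libraries is given.

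**Figure D4:**
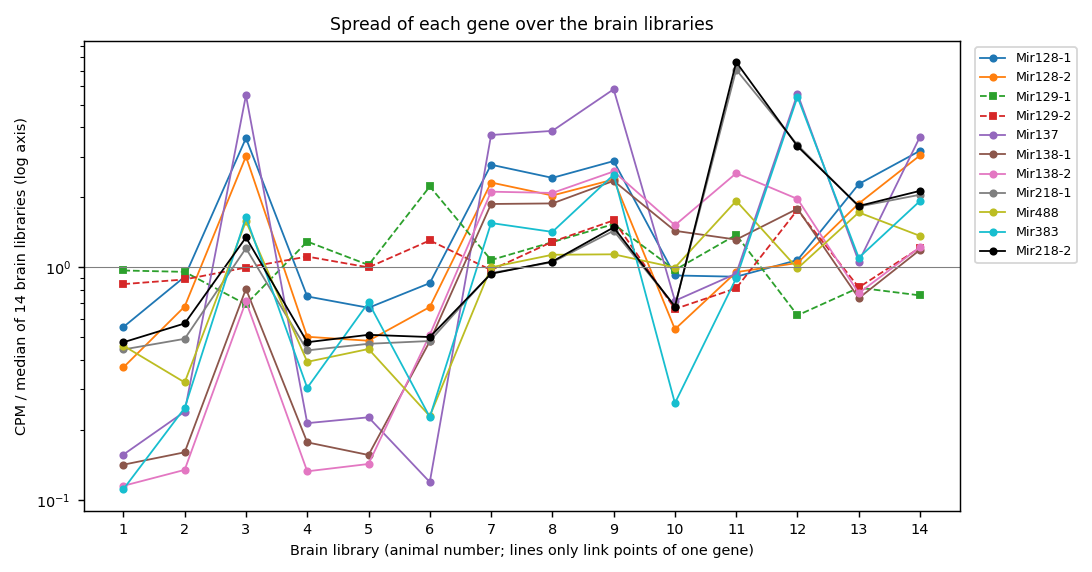
CPM of each gene in the 14 brain libraries, divided by that gene's median over them, on a log axis; dashed lines are the Mir129 copies. The Mir129 lines span the narrowest range from lowest to highest library, though not nearest to 1 in every library, while every other gene lies below 1 in libraries 1, 2, 4 and 5.

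Of the marker sums read in the brain libraries, only that of ciliated cells separated these libraries from the rest, and by a narrow margin. The summed level of 4 miRNAs of ciliated cells (Mir449a, Mir449c, Mir34b and Mir34c) was 1285, 2061, 1573, 2516 and 2284 CPM in Brain 1, 2, 4, 5 and 6. In the other 9 brain libraries it was 94.5 to 1273 CPM. The 3 Mir124a copies summed to 6281 to 11691 CPM in those 5 libraries and to 1538 to 45248 CPM in the other 9, so neurons' own marker overlapped. The oligodendrocyte markers summed to 2755 to 8376 CPM in those 5 and to 1878 to 7995 CPM in the other 9. The sums of the blood markers and of the Mir9 copies overlapped as well. Sensory epithelium markers were high in Brain 3, 7, 8 and 10, at 42847 to 494778 CPM. The part of these cell types in the members' spread was not tested.

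The animal sets were compared last. Within a tissue, sex, animal set and library pool are the same split and cannot be told apart. Mir218-1 was the only member called in brain between animals 11 to 14 and animals 1 to 10, and the only one in kidney, a tissue added after the data were seen. In brain it was 339 to 1109 CPM in animals 1 to 10 (median 453) and 1409 to 5465 CPM in animals 11 to 14 (median 2089), without overlap. In kidney it was 25.1 to 49.0 CPM (median 31.98) against 57.1 to 146 CPM (median 101), again without overlap. The kidney libraries of animals 11 to 14 were also shallower, at 301536 to 2663695 counts against 9393931 to 14943881. Their share of miRNA counts was 92.59 to 96.88%, against 72.80 to 92.49%. Depth and composition in kidney thus follow the same split, and their part in the difference was not tested. The log2 difference was 1.61 (SE 0.36) in brain and 1.36 (SE 0.37) in kidney, with adjusted p of 4.22e-04 and 0.00231 by edgeR with Benjamini-Hochberg adjustment. Mir218-2 moved alike, by 1.56 (SE 0.33) and 1.31 (SE 0.34), but the copies share a mature strand and are not independent. In all, 5.52% of genes tested were higher and 12.4% lower in brain of animals 11 to 14, and 3.63% and 20.4% in kidney, where the median over all genes was -1.22. Without the shallow Brain 11, where the reference library of the TMM scaling also changed, the brain difference of Mir218-1 was 1.39. It was 0.90 and not called without a filter on low counts, and with miRNA genes only the kidney difference was 0.51 and not called.

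**Figure D5:**
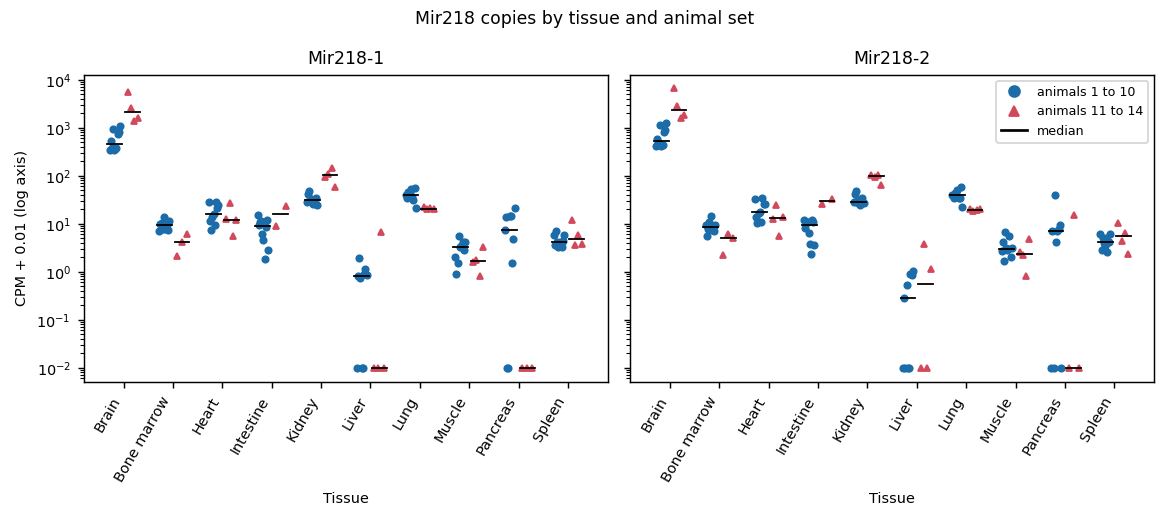
CPM + 0.01 on a log axis for Mir218-1 and Mir218-2 in every library of 10 tissues, with animals 1 to 10 as circles, animals 11 to 14 as triangles and bars at the medians. In brain and kidney every triangle lies above every circle; in lung most triangles lie below the circles.

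The set difference of Mir218-1 varied between tissues, with an adjusted p of 3.17e-04 for the set-by-tissue interaction in edgeR's quasi-likelihood test, which 38.1% of genes passed. In lung, Mir218-1 was 21.7 to 56.4 CPM in animals 1 to 10 and 20.4 to 21.8 CPM in animals 11 to 14, a log2 difference of -0.68 (SE 0.40) that was not called. Bone marrow held 6.92 to 13.6 CPM of Mir218-1 in animals 1 to 10 and 2.07 to 6.21 CPM in animals 11 to 14. These ranges did not overlap, in the direction opposite to brain and kidney, but the log2 difference of -0.32 (SE 0.45) was not called. In the 2 intestine libraries of animals 11 to 14, Mir218-2 was 25.7 and 32.8 CPM against at most 11.9 CPM in animals 1 to 10, and it was called higher there (1.78, SE 0.42). No other member was called in brain; the nearest was Mir383, at 1.41 (SE 0.59).

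By likeness of pattern, the 3 genes with the highest Pearson correlation of tissue means of log2(CPM + 1) over the 11 tissues were found for each member, with the members and Mir218-2 left out. Mir218-2 had an r of 0.998 with Mir218-1, its copy. Mir219a-2, an oligodendrocyte miRNA, was nearest to Mir129-1 (r = 0.98), Mir1224 to Mir129-2 (0.99), Mir124a-2 to Mir137 (0.91) and Mir551b to Mir383 (0.96). Mir338 was nearest to Mir128-1 (0.94), Mir1249 to Mir128-2 (0.94), Mir1983 to Mir138-1 (0.91) and Mir384 to Mir138-2 (0.93). Apart from these, genes known only by a Gm number were nearest to Mir218-1 (Gm26168, 0.93) and to Mir488 (Gm24693, 0.97). The 11 points are tissues that differ in depth, so these values describe likeness only.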

How the data were processed

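Small RNA libraries of 139 mouse tissue samples make up the series; 134 libraries were used and 5 samples were not analysed here. The authors deposited raw counts per small RNA gene, without normalisation. The tools named are STAR 2.5.1, featureCounts and the build mm10, per the submitters' processing notes. The sources used here do not give the counting options for strand or for reads that match several places. Columns were matched to samples by name. The 3 testis columns matched their group only, and their pool was taken as N541. No 2 columns were identical.

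CPM was computed over the library total. Tests ran in R 4.3.3 with edgeR 4.0.16 and limma 3.58.1: the quasi-likelihood F test was fitted to 1268 of 6114 genes kept by filterByExpr with a minimum count of 10. TMM factors ran from 0.199 to 5.88. The model had tissue and pool, or tissue by animal set, and p-values were Benjamini-Hochberg adjusted over all genes tested. A call needed an adjusted p below 0.05 and a log2 change of at least 1. A standard error is the log2 difference over the square root of F. Copy ratios used log2 of counts plus 1 and an exact sign-flip test. Intervals are 95% exact binomial, and a group without counts was set to a floor of 3 counts. Fits were tested on simulated data. DESeq2 1.42.0, other scalings and filters, left-out libraries, single pools and an animal block were alternatives.

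Equal replicate numbers name the same animal in the labels. The residuals of libraries of 1 animal had a mean correlation of 0.041 over 583 pairs, against -0.0094 over 8328 pairs of different animals. Each library is 1 animal's tissue, so the spread is between animals.

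The members and all lists were chosen with earlier results of these data known. Named genes are the members, Mir218-2, the 4 highest of the list of other brain miRNAs, the nearest genes by pattern and the markers.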

Additional observations from a re-analysis of the deposited data

Results flagged for a closer look

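The highest and lowest level of each member was checked within each animal set of brain and of kidney, over 4 or 10 libraries. Of 38 such checks of 1 member in 1 set, 2 held a library far from the others. Chance flags about 1 in 20. Other tissues were not checked in this way. Mir128-1 was 15.2 CPM in Kidney 2, against 9.20 CPM in the next of the 10 kidney libraries of animals 1 to 10. Mir138-1 was 0.618 CPM in Kidney 11 and 0 in the other 3 kidney libraries of animals 11 to 14. This value is 1 count, under that library's floor of 1.85 CPM for 3 counts, so Kidney 11 cannot be told from the others at this depth.

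For 2 members the difference between animals 11 to 14 and animals 1 to 10 varied between tissues. By edgeR with Benjamini-Hochberg adjustment, the interaction of animal set and tissue had an adjusted p of 3.17e-04 for Mir218-1 and 0.00102 for Mir488. Of all 1268 genes tested, 483 passed this test, which is 38.1%. Mir488 was called higher in animals 11 to 14 in bone marrow (log2 difference 4.37) and spleen (1.73), and it was 0.67 and not called in brain. The bone marrow difference comes from 1 library, Bone marrow 13, which held 42 of the tissue's 45 counts of Mir488; Bone marrow 11 and 14 held none. That library also held 22 of 23 bone marrow counts of Mir383. Without it, an alternative chosen after seeing the data, the bone marrow difference of Mir488 was -1.52 and not called, and its interaction had an adjusted p of 0.134, above the threshold. The interaction of Mir218-1 had an adjusted p of 6.67e-05 without that library.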

How the results depend on the processing

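All 10 members stayed higher in brain than in the mean of the other tissues under every alternative run, and higher than in every other tissue in all but pool N541 alone, where Mir129-1 against pancreas was 3.08 and not called. With the animal as a replicate block the counts were 10, 10 and 31 of the 100 pairs, with 454 genes higher in brain against 465, and the block changed no call of a member; it could not be run on the animal sets, which are nested in the animals. The genes higher in brain numbered 234 with miRNA genes only, where fewer genes were tested, 307 with pool N541 alone and 300 without testis; leaving out single libraries gave 415 to 479. The calls in non-brain tissues numbered 23 to 32. In pool N541 alone Mir138-2 in pancreas changed sign, at -5.35 against 2.57, since none of those 3 pancreas libraries held a count of it. In that pool the copy ratios rest on 4 libraries, too few to pass: 0.61 for Mir128, -1.61 for Mir129, 0.087 for Mir138 and -0.19 for Mir218. For the animal sets, 2 members were called in brain by the DESeq2 Wald test and with miRNA genes only, and 2 in kidney with kidney libraries only, where Mir383 was also called at 1.47. The Mir218-1 difference was 1.39 to 1.61 in brain and 1.58 to 1.87 in kidney with single libraries of animals 11 to 14 left out. All 4 kidney values lie above 1.36, and in all 4 the reference library of the TMM scaling changed from Heart 13 to Muscle 10. The reference changed in the same way without Brain 11, but not without Brain 12, 13 or 14. Without Bone marrow 13 the set-by-tissue interaction of Mir488 no longer passed (adjusted p 0.134). After TMM scaling the brain levels of Mir129-1 and Mir129-2 were 342 and 812 CPM, against 564 and 1327 of the library total. Pancreas, with 2872917 counts in 12 libraries, sets the depth limit.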
